A study of Mus musculus with 16 samples.

Results

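The genes described here are 6 noncoding RNA genes that lie within the mouse Hox clusters: Hotairm1, Hoxa11os and Hottip of HoxA, Hoxb3os and Hoxb5os of HoxB, and Hotair of HoxC. They were taken by symbol from the 26411 genes of the count files, where all 6 are listed, and 5 of the 6 had enough counts to be among the 15679 genes tested. The samples are 16 whole embryos at embryonic day 9.5, with 4 in each of 4 genotypes, and their RNA was sequenced. Kat6a+/+Kat6b+/+ embryos are the wild-type controls, Kat6a-/-Kat6b+/+ embryos are null for Kat6a and carry endogenous Kat6b alone, Kat6a+/+Tg(Kat6b) embryos carry a Kat6b transgene beside intact Kat6a, and Kat6a-/-Tg(Kat6b) embryos carry the transgene on the Kat6a-null background. The null allele lacks internal exons of Kat6a and is present in every tissue. Tg(Kat6b) is a multicopy bacterial artificial chromosome that holds Kat6b with its flanking sequence, and all embryos with it descend from a single founder line. The genotypes are called wild-type, Kat6a-null, transgenic and null-transgenic below, in that order. KAT6A and KAT6B are related histone acetyltransferases, and the 4 genotypes ask how gene expression changes when KAT6A is lost and when KAT6B is in excess, alone or together.

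Hox genes encode homeodomain transcription factors that give cells their position along the body axis. They sit in clusters, and their order in a cluster matches the order in which they are switched on in time and from head to tail. Many transcripts without a protein product start inside the clusters, many of them on the strand opposite to the Hox genes. Hotairm1 was named for its activity in myeloid cells. Hottip begins at the Hoxa13 end of HoxA and Hotair lies among the posterior HoxC genes, and both have been studied for their association with chromatin-modifying complexes. Hoxa11os is antisense to Hoxa11, and Hoxb3os and Hoxb5os are named for the HoxB genes they oppose.

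Positions are those of the GENCODE annotation of GRCm39. Hotairm1 (Entrez Gene 105242658; chr6:52133896-52139284, plus strand) overlaps Hoxa2. Hoxa11os (Entrez Gene 15397; chr6:52220356-52226784, plus strand) overlaps Hoxa11, and Hottip (Entrez Gene 791364; chr6:52239760-52244588, plus strand) begins 1937 bases from Hoxa13 and overlaps no Hox gene. Hoxb3os (Entrez Gene 102632302; chr11:96233787-96245517, minus strand) overlaps Hoxb3 and Hoxb2. Hoxb5os (Entrez Gene 75395; chr11:96164373-96205983, minus strand) is the longest of them, spanning 41611 bases with 57 annotated transcripts that run opposite to Hoxb5, Hoxb6, Hoxb7, Hoxb8 and Hoxb9. Hotair (Entrez Gene 100503872; chr15:102852494-102862817, minus strand) begins 44 bases from Hoxc11 and overlaps no Hox gene. Counting the Hox genes that overlap them and the next Hox gene at a free end, the 6 noncoding genes have 15 neighbouring Hox genes.

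The library kit did not mark strand and the strand setting of the counting was not stated, so reads from a noncoding gene and from a Hox gene on the other strand cannot be told apart where their exons overlap. Exons of protein-coding Hox genes on the opposite strand cover 60.9% of the annotated exon bases of Hoxb3os, 47.2% of Hotairm1, 26.6% of Hoxa11os and 14.8% of Hoxb5os, and none of Hottip or Hotair. The values of the first 4 genes are therefore uncertain. By how much is not known, since the gene models used for counting have other lengths and the share of reads in the overlaps was not measured. The stretches below are exonic in the largest number of GENCODE transcripts of their gene and overlap no annotated Hox exon. Their overlap with genes other than Hox genes was not checked, and the Hoxb5os stretch lies within the span of Hoxb6. They are shown for the 2 genes that passed the test in any comparison and for Hotairm1, which had the highest level per listed length. They are read 5′ to 3′ on the strand of the gene from GRCm39, and no base is capitalised. They lie at chr11:96184201-96184363 (163 bases, in 47 of 57 transcripts), chr6:52226064-52226261 (198 bases, in 15 of 15 transcripts) and chr6:52135504-52135666 (163 bases, in 3 of 3 transcripts).
Hoxb5os: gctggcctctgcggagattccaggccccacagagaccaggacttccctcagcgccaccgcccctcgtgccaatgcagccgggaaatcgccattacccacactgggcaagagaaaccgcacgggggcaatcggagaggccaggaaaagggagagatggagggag
Hoxa11os: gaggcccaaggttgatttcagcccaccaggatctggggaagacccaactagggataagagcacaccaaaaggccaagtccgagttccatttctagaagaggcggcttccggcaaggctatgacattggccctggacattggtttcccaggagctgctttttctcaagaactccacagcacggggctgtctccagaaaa
Hotairm1: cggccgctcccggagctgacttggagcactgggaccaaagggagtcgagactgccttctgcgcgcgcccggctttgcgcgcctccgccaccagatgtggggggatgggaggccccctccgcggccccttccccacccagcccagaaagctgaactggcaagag

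Promoters of 300 bases, from 250 before to 50 after the start, were given by RefSeq for 3 of the 6 genes, and each was found at 1 place in GRCm39. Of these 3, the promoters with the most and the fewest CpG dinucleotides are shown, that of Hoxa11os, which had counts in all embryos, and that of Hottip, which had hardly any. The Hoxa11os promoter (chr6:52221973-52222272, plus strand) holds 41 CpG dinucleotides and overlaps an exon of Hoxa11. The Hottip promoter (chr6:52239510-52239809, plus strand) holds 6, and the median over 32851 mouse promoters was 7. The Hoxb3os promoter (chr11:96244171-96244470, minus strand) holds 19 and overlaps an exon of Hoxb2. CpG dinucleotides are in capitals.
Hoxa11os: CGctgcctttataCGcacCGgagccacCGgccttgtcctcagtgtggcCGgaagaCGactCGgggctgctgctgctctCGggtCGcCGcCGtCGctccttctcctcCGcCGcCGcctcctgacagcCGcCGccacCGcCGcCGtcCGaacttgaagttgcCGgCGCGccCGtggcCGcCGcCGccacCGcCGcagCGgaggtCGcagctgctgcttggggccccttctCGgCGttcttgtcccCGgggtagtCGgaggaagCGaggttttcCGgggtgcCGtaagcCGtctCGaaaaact
Hottip: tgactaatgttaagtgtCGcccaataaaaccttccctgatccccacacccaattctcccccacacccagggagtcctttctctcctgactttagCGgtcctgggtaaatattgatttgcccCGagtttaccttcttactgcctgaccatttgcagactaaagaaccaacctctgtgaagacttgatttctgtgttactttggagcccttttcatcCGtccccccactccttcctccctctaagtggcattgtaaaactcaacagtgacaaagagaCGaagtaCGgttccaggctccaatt
The letters TTTATG (a CDX site, in 11.9% of all promoters), AGGTCA (a retinoid receptor motif, in 16.3%) and TGATTNAT (a PBX-HOX site, in 3.22%) were searched on both strands, and none was present in any of the 3 promoters.

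Counts summed to between 14407277 and 45665680 per embryo. Kat6b was at 42.6 to 51.0 CPM (counts relative to the TMM-scaled library total) in the 8 embryos without the transgene and at 155 to 227 CPM in the 8 with it. Kat6a was at 138 to 218 CPM over all embryos, as counts over the whole gene do not resolve the deleted exons, and the null genotype could not be checked from them. Wild-type embryos came from litters 801, 803, 2597 and 2598, Kat6a-null embryos from 801 and 803, and transgenic embryos from 2597 and 2598. The null-transgenic embryos came from litters 483 and 498, which held no other genotype, so litter and genotype cannot be told apart in any comparison with them. All markers of tail bud, limb bud, hindbrain, heart, primitive red cells, neural tube and visceral endoderm on the lists used had counts in every embryo, as a whole embryo should hold.

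In wild-type embryos the 6 genes spanned a wide range of levels. Per listed gene length, Hotairm1 was at 30.2 ± 3.30 RPKM (CPM per kilobase of gene; SD, n = 4) and Hoxb5os at 29.2 ± 4.07 RPKM, and the embryos of these genes overlapped, from 26.1 to 33.6 and from 24.1 to 33.8 RPKM. Hoxb3os followed at 5.76 ± 0.445 RPKM (5.15 to 6.21), Hoxa11os at 3.71 ± 0.507 RPKM (3.06 to 4.12) and Hotair at 0.341 ± 0.145 RPKM (0.154 to 0.462), with no overlap between these 3 or with the genes above. The median of all tested genes was 7.29 RPKM. Hottip was at the limit of detection, with 1 count over the 4 wild-type embryos together.

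The order depends on the gene length used. The files list 253 bases for Hotairm1 and 583 for Hoxb5os, shorter than the 1196 and 6899 exon bases that GENCODE annotates over all their transcripts. With the GENCODE exon bases as lengths, Hotairm1 was at 6.38 ± 0.697 RPKM, Hoxb5os at 2.46 ± 0.344, Hoxa11os at 1.80 ± 0.246, Hoxb3os at 0.652 ± 0.0504 and Hotair at 0.261 ± 0.111 RPKM (SD, n = 4 each). With listed lengths Hoxb5os lay above 37 of the 38 tested Hox genes in level, and with GENCODE exon bases for all genes it lay above 6 of 38. For Hotairm1 the same counts were 37 and 20 of 38. The GENCODE exon bases are joined over all transcripts and exceed the longest annotated transcript, 927 bases for Hotairm1 and 1252 for Hoxb5os. Reads were counted on the gene models of the files, so levels with GENCODE exon bases can be too low. Which level is closer to the transcripts present in these embryos was not tested, and the comparisons between genotypes below do not depend on gene length.

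Relative to the nearest Hox gene, 4 of the noncoding RNAs stood differently. Per listed length in wild-type embryos, Hoxb5os was at 276% ± 22.7 (SD, n = 4) of Hoxb6. Hoxa11os was at 92.2% ± 5.61 of Hoxa11, Hoxb3os at 29.0% ± 1.78 of Hoxb3 and Hotair at 12% ± 5.25 of Hoxc11. With GENCODE exon bases for both genes of a pair, Hoxb5os was at 38.0% ± 3.13 of Hoxb6, Hoxa11os at 45.4% ± 2.76 of Hoxa11, Hoxb3os at 4.53% ± 0.278 of Hoxb3 and Hotair at 20.3% ± 8.87 of Hoxc11. All 4 ratios thus moved by over 1.5 times with the length, and Hoxb5os turned from above Hoxb6 to below it. The limit on GENCODE exon bases given above holds for these ratios too. The plot of wild-type levels shows both lengths for the noncoding genes and the listed length for the Hox genes.

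**Figure D1:**
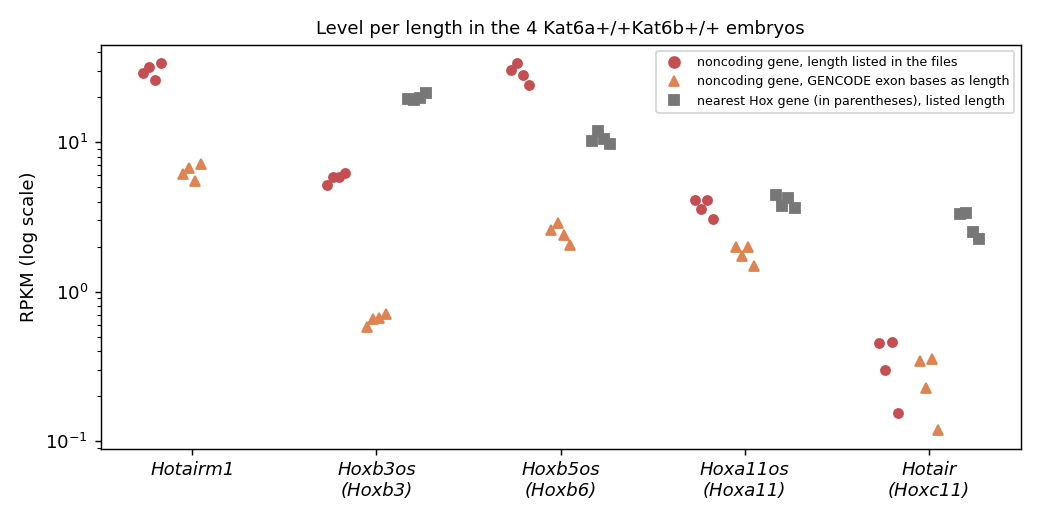
Level per length (RPKM, log scale) of 5 noncoding genes in the 4 wild-type embryos, with the length listed in the files (circles), with GENCODE exon bases as the length (triangles), and of the nearest Hox gene (squares, named in parentheses, not drawn for Hotairm1). Hoxb5os lies above Hoxb6 with the listed length (24.1 to 33.8 RPKM) and below it with GENCODE exon bases (mean 2.46 RPKM).

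Hoxb5os, the transcript opposite to the middle of HoxB, was lower in Kat6a-null than in wild-type embryos. It was at 17.8, 19.7, 16.4 and 14.1 CPM in the wild-type embryos and at 11.7, 10.6, 7.56 and 11.4 CPM in the Kat6a-null embryos. Every Kat6a-null embryo lay below every wild-type embryo. The group means were 17.0 ± 2.37 and 10.3 ± 1.88 CPM (SD, n = 4 each), and the log2 fold change was −0.72 (standard error 0.0885; edgeR FDR = 7.03e-05), which is 0.606-fold. FDR here is the p of the quasi-likelihood test in edgeR, adjusted over all tested genes by Benjamini and Hochberg. Hoxb5os was the only 1 of the 5 tested noncoding genes to pass the threshold of 0.05 in this comparison, which 1.88% of all tested genes passed.

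The fall of Hoxb5os was present within both litters that held the 2 genotypes. In litter 801 the wild-type embryo was at 17.8 CPM and its 2 Kat6a-null littermates averaged 11.1 CPM, and in litter 803 the values were 19.7 and 9.46 CPM. With a block for litter, fitted to the 12 embryos of the 4 shared litters, the log2 fold change was −0.85 (edgeR FDR = 0.0279) without surrogate variables and −0.76 with them, where the call was lost (edgeR FDR = 0.109). Over all 27 alternatives the FDR ran from 3.99e-11 to 0.109 and 26 kept the call. The call was kept in all 16 fits that each left out 1 embryo, with log2 fold changes from −0.79 to −0.65. By sex, the Kat6a-null embryos averaged 11.1 CPM in females and 9.46 CPM in males, and the wild-type embryos 15.3 and 18.7 CPM (n = 2 each). The Kat6a-null females are those of litter 801 and the males those of 803, so these are the litter means again. The wild-type males came from litters 801 and 803 and the females from 2597 and 2598. Sex and litter therefore cannot be told apart in these values.

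**Figure D2:**
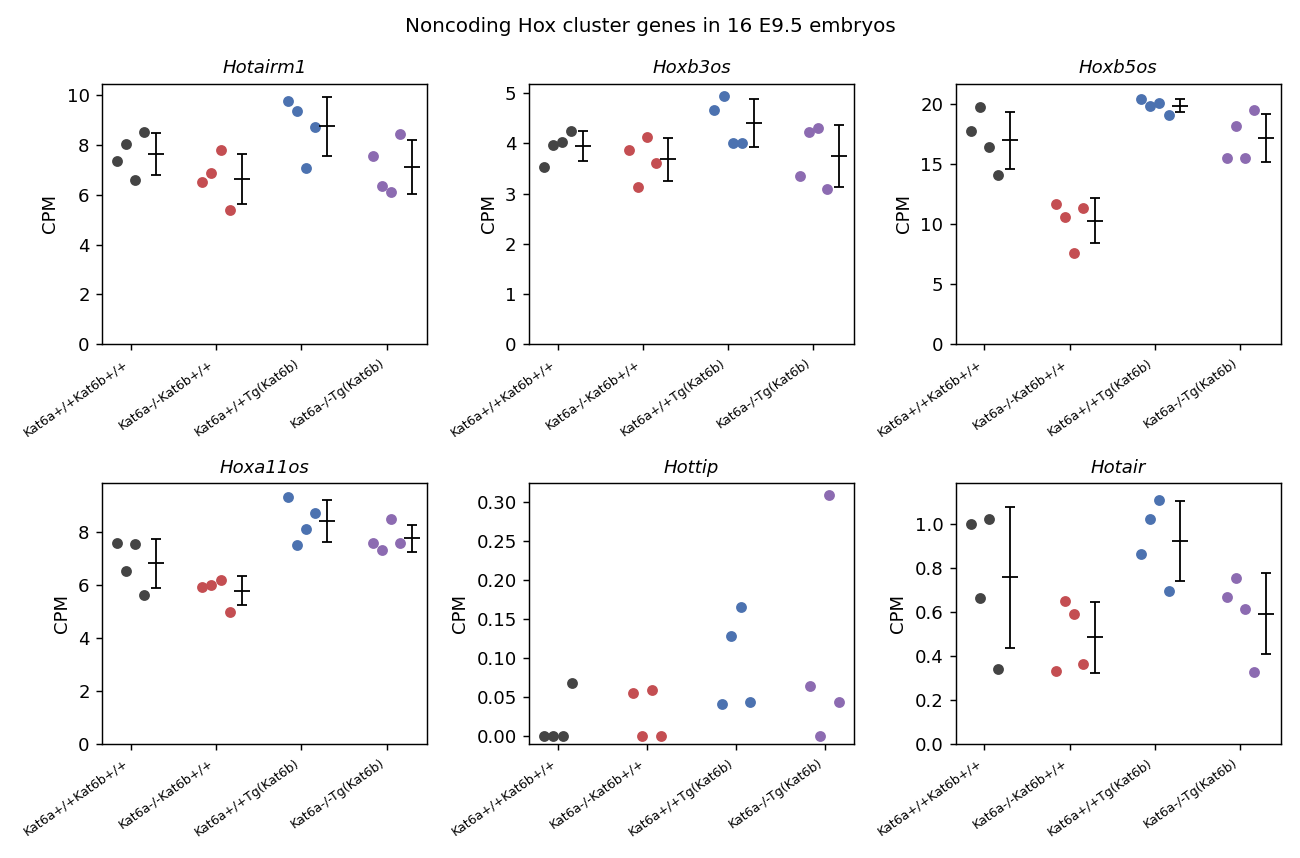
CPM of the 6 noncoding genes in each of 16 embryos by genotype (points), with the mean and SD of 4 embryos (bar, not drawn for Hottip). Hoxb5os is lower in all 4 Kat6a-null embryos (7.56 to 11.7 CPM) than in any other embryo, and Hottip reaches at most 0.308 CPM.

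The other noncoding genes did not pass the test in this comparison, though all 4 had lower fitted values. The log2 fold change was −0.26 for Hoxa11os (standard error 0.117; edgeR FDR = 0.293), −0.21 for Hotairm1 (0.135; FDR = 0.479), −0.11 for Hoxb3os (0.149; FDR = 0.771) and −0.66 for Hotair (0.363; FDR = 0.402). The median over the 5 tested noncoding genes was −0.26, that over the 38 tested Hox genes −0.23 and that over all tested genes 0.003.

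Among the 15 neighbouring Hox genes, 3 fell in Kat6a-null embryos, none rose, and the median log2 fold change was −0.18. Of all tested genes, 1.88% were called in this comparison. Hoxb1, which patterns the hindbrain, was at 20.2 CPM in wild-type and 13.01 CPM in Kat6a-null embryos, a log2 fold change of −0.66 (standard error 0.0729, edgeR FDR = 1.79e-05). Hoxb3 fell from 74.0 to 56.2 CPM (log2 fold change −0.39, edgeR FDR = 3.27e-06) and Hoxb9, which lies at the far end of Hoxb5os, from 109.7 to 87.3 CPM (log2 fold change −0.33, edgeR FDR = 0.000597). The 4 other Hox genes that Hoxb5os runs across did not pass the test. Hoxb6, the nearest, had a log2 fold change of −0.23 (standard error 0.0941; FDR = 0.232), Hoxb5 of −0.14 (FDR = 0.388), Hoxb8 of −0.0012 (FDR = 0.995) and Hoxb7 of 0.13 (FDR = 0.536). Over all 39 Hox genes, 9 of the 38 tested fell and none rose, and 34 of the 38 had a negative log2 fold change.

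Whether Hoxb5os fell further than Hoxb6 was tested within each embryo, as the log2 ratio of their counts. Hoxb5os gave 123, 118, 110.5 and 101.5 counts per 100 counts of Hoxb6 in the wild-type embryos and 93.4, 78.7, 53.6 and 102.3 in the Kat6a-null embryos. The lowest wild-type embryo, from litter 2598, lay below 1 Kat6a-null embryo, and the ratio differed by −0.50 on the log2 scale (two-sided exact permutation test, p = 0.0571; 0.428 after adjustment over 15 such comparisons), so it did not pass this test, which ignores litter. Within litters 801 and 803, the ratio was lower in 4 of 4 Kat6a-null embryos than in their own wild-type littermate, by 0.59 on average on the log2 scale (n = 2 wild-type and 4 Kat6a-null; two-sided exact permutation within litters, p = 0.222, where 9 arrangements allow no p below 0.111). These litters are too few for such a test to reach 0.05. For n = 4 against 4 the smallest p is 0.0286. Without Kat6a-null replicate 3 the difference of the ratios was −0.31.

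Hoxb3 and its antisense gene differed in call but the difference between them did not pass its test. Hoxb3os was at 3.53, 3.98, 4.02 and 4.26 CPM in wild-type and at 3.87, 3.13, 4.14 and 3.61 CPM in Kat6a-null embryos, and the groups overlapped, whereas those of Hoxb3 did not. The log2 ratio of Hoxb3os to Hoxb3 was 0.29 higher in Kat6a-null embryos (two-sided exact permutation test, p = 0.0857; 0.428 after adjustment over the 15 comparisons). Within litters 801 and 803 it was higher in 4 of 4 Kat6a-null embryos than in their wild-type littermate, by 0.32 on average (exact permutation within litters, p = 0.222).

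The summed levels of region markers are given beside these values. In Kat6a-null vs. wild-type embryos 1 of 9 tail bud markers was called, beside 1.88% of all tested genes, and none of the limb bud markers. In null-transgenic vs. Kat6a-null embryos 3 of 5 limb bud and 3 of 9 tail bud markers were called, beside 7.14% of all tested genes. No marker of hindbrain, heart, primitive red cells, neural tube or visceral endoderm was called in either comparison. The summed CPM of 5 of 5 limb bud markers was 95.9 to 109 in wild-type, 73.8 to 85.6 in Kat6a-null, 72.5 to 124.5 in transgenic and 119 to 122 in null-transgenic embryos. That of 3 of 3 neural tube markers was 297 to 308, 279 to 292, 317 to 345 and 281 to 295 CPM, and that of 9 of 9 tail bud markers 50.3 to 91.1, 47.6 to 79.7, 73.7 to 88.6 and 69.6 to 107 CPM. For 4 of 4 visceral endoderm markers the sums were 10.5 to 50.1, 4.65 to 11.4, 1.65 to 43.4 and 32.0 to 44.9 CPM. None of these markers was at 0 in any embryo, and their part in the results was not tested. In RNA of whole embryos, fewer cells that express a gene and less RNA per cell cannot be told apart.

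With the Kat6b transgene on a wild-type background, no noncoding gene passed the test. In transgenic vs. wild-type embryos, 0 of the 5 tested genes passed in edgeR, DESeq2 or limma-voom, where edgeR called 0.14% of all genes. An unadjusted p under 0.05 was found for 1805 of all 15679 tested genes and for 2 of these 5. All 5 had positive log2 fold changes, with a median of 0.21 beside 0.18 for the 38 tested Hox genes and 0.002 for all genes, though that of Hotair ran from −0.029 to 0.48 when single embryos were left out. Hoxb5os was at 20.4, 19.9, 20.1 and 19.1 CPM, of which 3 lay above every wild-type embryo and the lowest lay below the highest wild-type embryo at 19.7 CPM, with a log2 fold change of 0.27 (standard error 0.0853; edgeR FDR = 0.209). Hoxa11os was at 9.34, 7.50, 8.12 and 8.73 CPM against 7.57, 6.52, 7.55 and 5.63 CPM in wild type, with a log2 fold change of 0.29 (standard error 0.114; FDR = 0.296). The groups overlapped for both genes. Hotairm1 had a log2 fold change of 0.21 (FDR = 0.586), Hotair of 0.21 (FDR = 0.882) and Hoxb3os of 0.17 (FDR = 0.739).

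None of the 15 neighbouring Hox genes passed in this comparison in edgeR or limma-voom, and DESeq2 called 2, Hoxb1 and Hoxb3. An unadjusted p under 0.05 was found for 8 of the 15, beside the 1805 of 15679 over all tested genes. Without wild-type replicate 4 edgeR called Hoxb3, and without null-transgenic replicate 3 it called Hoxb1, 1 gene each. All 15 had positive log2 fold changes, with a median of 0.16. The count ratio of Hoxa11os to Hoxa11 was higher in all 4 transgenic embryos than in any wild-type embryo. Hoxa11os gave 104, 78.9, 92.9 and 80.0 counts per 100 counts of Hoxa11 in these embryos and 75.0, 76.6, 77.9 and 67.8 in wild type. The difference was 0.25 on the log2 scale (exact permutation test, two-sided, p = 0.0286, which no 4 against 4 design can go below; 0.428 after adjustment over the 15 comparisons), so it failed the correction.

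**Figure D3:**
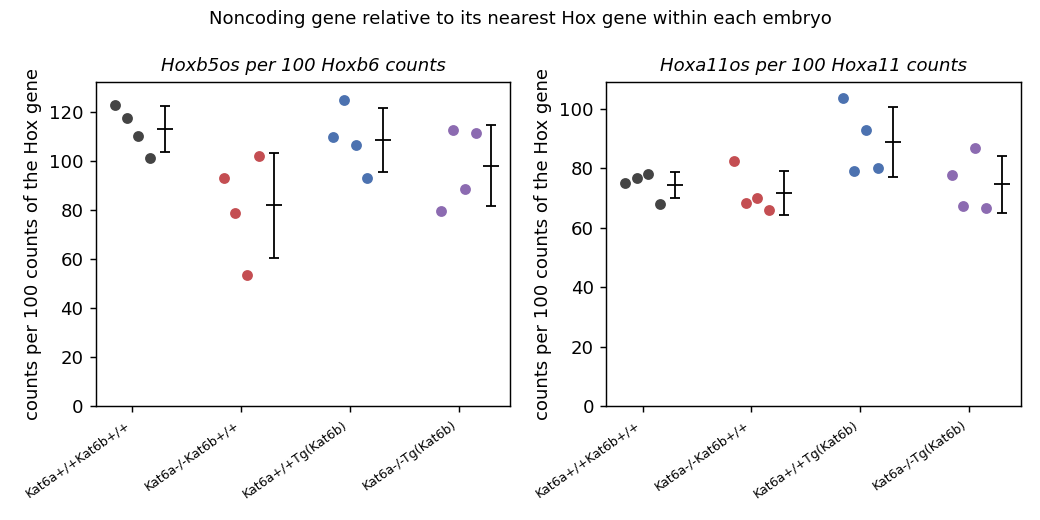
Counts of Hoxb5os per 100 counts of Hoxb6 and of Hoxa11os per 100 counts of Hoxa11 in each embryo by genotype, with the mean and SD of 4 embryos. The Hoxb5os ratio is 101.5 to 122.9 in wild-type and 53.6 to 102.3 in Kat6a-null embryos, and the Hoxa11os ratio is 67.8 to 77.9 in wild-type and 78.9 to 104 in transgenic embryos.

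With the transgene on the Kat6a-null background, Hoxb5os and Hoxa11os were higher than in Kat6a-null embryos. Hoxb5os was at 15.5, 18.2, 15.5 and 19.5 CPM in null-transgenic embryos, all above the highest Kat6a-null embryo at 11.7 CPM. Its log2 fold change was 0.62 (standard error 0.0902; edgeR FDR = 0.000335), 1.54-fold, and the call was kept in all 25 alternatives, from 0.55 to 0.73. Hoxb5os and Hoxa11os were 2 of the 5 tested noncoding genes, in a comparison where 7.14% of all genes passed.

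Hoxa11os, antisense to a gene of the posterior axis and limb, was at 5.92, 6.02, 6.20 and 4.99 CPM in Kat6a-null and at 7.60, 7.33, 8.51 and 7.60 CPM in null-transgenic embryos. The groups did not overlap, and the log2 fold change was 0.43 (standard error 0.117; edgeR FDR = 0.0306). This call was close to the threshold, and leaving out 1 embryo could lose it. It was lost without Kat6a-null replicate 1 (log2 fold change 0.46, edgeR FDR = 0.0557) or 4 (0.34, FDR = 0.0966). It was also lost without any 1 of the null-transgenic replicates 1, 2, 3 and 4, with FDR = 0.0507, 0.0502, 0.0929 and 0.0671 and log2 fold changes from 0.39 to 0.45. With the replicate number as a block the FDR was 0.0623. Over all 25 alternatives the FDR ran from 0.0155 to 0.0966 and 18 kept the call.

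The other noncoding genes did not pass. Between null-transgenic and Kat6a-null embryos the log2 fold change was 0.26 for Hotair (standard error 0.381; edgeR FDR = 0.732), 0.10 for Hotairm1 (0.138; FDR = 0.703) and 0.015 for Hoxb3os (0.152; FDR = 0.967). The median over the 5 genes was 0.26, beside 0.31 for the 38 tested Hox genes and −0.005 for all genes.

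Of the 15 neighbouring Hox genes, 7 rose in the same comparison and none fell: Hoxb1, Hoxb3, Hoxb5, Hoxb6, Hoxb8 and Hoxb9 of HoxB, and Hoxa11. Of all tested genes, 7.14% were called in it. Hoxb6 rose from 12.8 to 17.6 CPM, by 0.47 on the log2 scale (standard error 0.0946, edgeR FDR = 0.00524), and Hoxa11 from 8.11 to 10.5 CPM (0.37, standard error 0.104, FDR = 0.0329). Hoxb5 rose from 14.3 to 16.7 CPM (0.28, FDR = 0.0321) and Hoxb1 from 13.01 to 20.5 CPM (0.49, FDR = 0.000528). The nearest Hox gene of both called noncoding genes was therefore called with them, and that of Hoxb3os, Hoxb3, was called (0.22, FDR = 0.00265) while Hoxb3os was not. Without Kat6a-null replicate 1, Kat6a-null replicate 4 or null-transgenic replicate 2, 4 neighbours were called in place of 7: Hoxb1, Hoxb3, Hoxb6 and Hoxb9. The ratio of Hoxb5os to Hoxb6 differed by 0.29 on the log2 scale between these groups (two-sided exact permutation test, p = 0.286) and that of Hoxa11os to Hoxa11 by 0.054 (exact permutation p = 0.686), both 4 against 4 with overlapping embryos. Over all Hox genes, 19 of 38 rose and none fell.

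**Figure D4:**
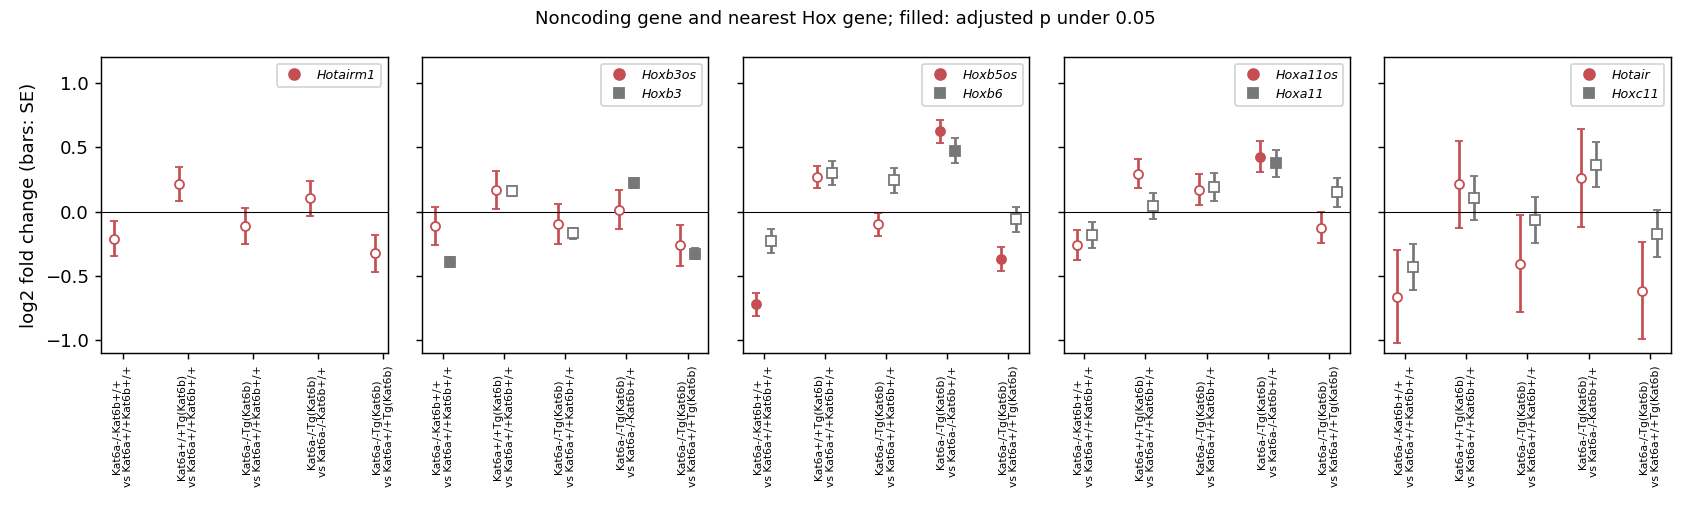
Log2 fold change with its standard error for 5 noncoding genes (circles) and the nearest Hox gene of 4 of them (squares, none for Hotairm1) in 5 comparisons of genotypes, filled where the adjusted p is under 0.05. Hoxb5os is filled at −0.72, 0.62 and −0.37, Hoxa11os at 0.43, and Hotairm1, Hoxb3os and Hotair in no comparison.

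In null-transgenic vs. wild-type embryos no noncoding gene passed in edgeR, DESeq2 or limma-voom, and none had an unadjusted p under 0.05, with 0.67% of all genes called. Hoxb5os averaged 17.2 ± 2.02 CPM beside 17.0 ± 2.37 CPM in wild type (SD, n = 4 each), with a log2 fold change of −0.098 (standard error 0.0895; edgeR FDR = 0.709). Hoxa11os averaged 7.76 ± 0.514 beside 6.82 ± 0.932 CPM (log2 fold change 0.17, FDR = 0.599). Hotairm1 had a log2 fold change of −0.11 (FDR = 0.804), Hoxb3os of −0.097 (FDR = 0.856) and Hotair of −0.41 (standard error 0.375; FDR = 0.715). The standard errors are given because a p that misses the threshold does not show that levels were the same. No neighbouring Hox gene was called in edgeR or limma-voom. An unadjusted p under 0.05 was found for 5 of the 15 and for 1987 of all 15679 tested genes. Over all Hox genes, 3 of 38 rose and none fell in edgeR, beside the 0.67% of all genes called. Hoxb3 was called in DESeq2, and in edgeR with 1 or no surrogate variable, with sex as the covariate or without transgenic replicate 1, 1 gene of the 15 in each.

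Between the genotypes that carry the transgene, Hoxb5os was lower without Kat6a. In null-transgenic vs. transgenic embryos its log2 fold change was −0.37 (standard error 0.0923; edgeR FDR = 0.0313), although 1 null-transgenic embryo, at 19.5 CPM, lay within the range of the transgenic embryos. It was 1 of 5 tested noncoding genes called, and 3.41% of all genes were. The call was close to the threshold and was kept in 12 of 25 alternatives, with FDR from 0.00828 to 0.348. Without surrogate variables the log2 fold change was −0.21 (FDR = 0.342), and with the replicate number as a block it was −0.39 (FDR = 0.0633). The FDR was 0.0538 without Kat6a-null replicate 1 and 0.0569 without wild-type replicate 2. It was 0.116, 0.0774, 0.0894 and 0.0517 without null-transgenic replicates 1, 2, 3 and 4, and 0.0594, 0.0586 and 0.0547 without transgenic replicates 1, 3 and 4, with log2 fold changes from −0.42 to −0.30 over the 16 fits. Litter cannot be told apart from genotype here.

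Among the 15 neighbouring Hox genes, 3 fell in the same comparison and none rose, beside 3.41% of all tested genes called. They were Hoxb1 (−0.46, edgeR FDR = 0.00306), Hoxb3 (−0.33, FDR = 0.000232) and Hoxb9 (−0.21, FDR = 0.0302). Of these only Hoxb9 is a neighbour of Hoxb5os, and Hoxb1 and Hoxb3 are neighbours of Hoxb3os. Of the 38 tested Hox genes, 5 fell and none rose. Hoxb1 averaged 20.5 CPM in null-transgenic and 23.7 CPM in transgenic embryos, and the groups overlapped, whereas those of Hoxb3 and Hoxb9 did not. Its log2 fold change is fitted with surrogate variables, while the CPM are not adjusted for them. Hoxb6 had a log2 fold change of −0.061 (FDR = 0.789) and Hoxb5 of 0.040 (FDR = 0.84). The comparisons share the same embryos, so their values are set side by side only. In each of the 3 comparisons in which Hoxb5os was called, Hoxb1, Hoxb3 and Hoxb9 were called too, in the direction of Hoxb5os. So were Hoxd3 and Hoxd4 of HoxD, which neighbour none of the 6 noncoding genes, so these joint calls were not limited to HoxB. The Hoxb1 embryos also overlapped between null-transgenic and Kat6a-null. The remaining noncoding genes had log2 fold changes of −0.62 (Hotair; standard error 0.376, FDR = 0.395), −0.33 (Hotairm1; FDR = 0.215), −0.26 (Hoxb3os; FDR = 0.388) and −0.12 (Hoxa11os; FDR = 0.624).

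**Figure D5:**
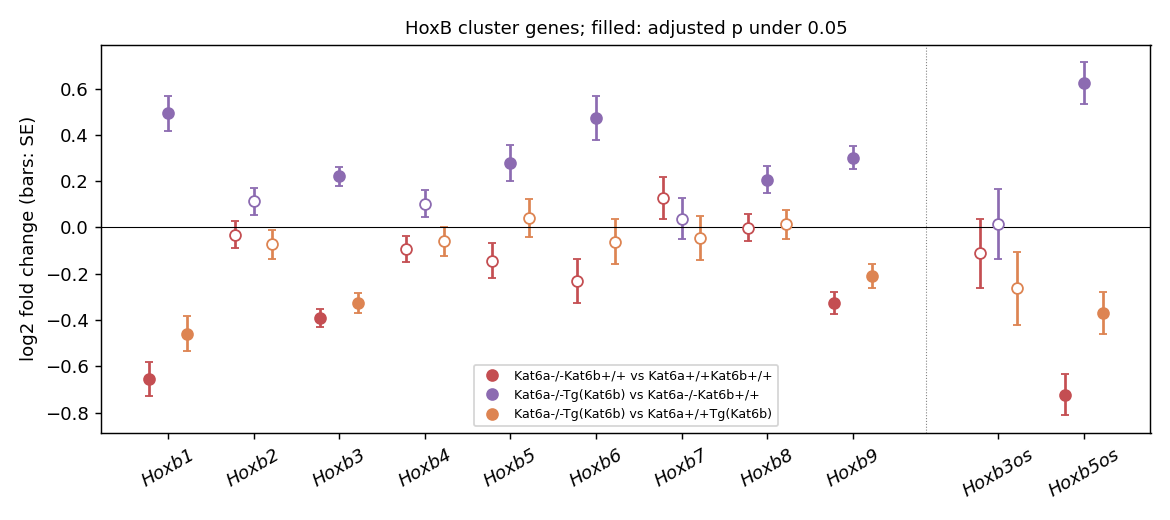
Log2 fold change with its standard error of Hoxb1 to Hoxb9 and, right of the dotted line, of Hoxb3os and Hoxb5os, in 3 comparisons, filled where the adjusted p is under 0.05. Hoxb1, Hoxb3, Hoxb9 and Hoxb5os are filled in all 3, whereas Hoxb6 is filled only in null-transgenic vs. Kat6a-null embryos, at 0.47.

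Whether the effect of KAT6A loss differed with and without the transgene was tested as an interaction. None of the 5 noncoding genes passed in edgeR, DESeq2 or limma-voom, with 0.153% of all genes called. An unadjusted p under 0.05 was found for 2284 of all 15679 tested genes and for 1 of these 5. That was Hoxb5os, with an interaction of 0.35 on the log2 scale (standard error 0.127; edgeR FDR = 0.218). The interaction was 0.13 for Hoxa11os (standard error 0.167), −0.15 for Hoxb3os (0.216), −0.11 for Hotairm1 (0.196) and 0.047 for Hotair (0.513).

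Hotairm1 was not called in any comparison. It was at 7.64 ± 0.834 CPM in wild-type, 6.65 ± 1.00 in Kat6a-null, 8.75 ± 1.19 in transgenic and 7.12 ± 1.10 CPM in null-transgenic embryos (SD, n = 4 each). Its embryos ranged from 5.38 CPM, in a Kat6a-null embryo, to 9.79 CPM, in a transgenic embryo, and every pair of genotypes overlapped.

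Hoxb3os was at 3.94 ± 0.305, 3.69 ± 0.430, 4.41 ± 0.475 and 3.74 ± 0.616 CPM in wild-type, Kat6a-null, transgenic and null-transgenic embryos (SD, n = 4 each), from 62 to 141 counts per embryo. All genotypes overlapped.

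Hotair, the noncoding gene of HoxC, was rare, with 5 to 27 counts per embryo. It was at 1.00, 0.663, 1.027 and 0.343 CPM in wild-type, 0.332, 0.652, 0.591 and 0.366 CPM in Kat6a-null, 0.867, 1.02, 1.11 and 0.699 CPM in transgenic, and 0.668, 0.756, 0.617 and 0.329 CPM in null-transgenic embryos. At this depth 1 count is worth 0.022 to 0.0686 CPM, and the standard errors of its log2 fold changes between genotypes were 0.338 to 0.381, beside 0.0853 to 0.0923 for Hoxb5os. Its neighbours Hoxc11 and Hoxc12 were not called in any comparison.

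Hottip, beyond Hoxa13 at the posterior end of HoxA, was at the floor. The embryos gave 0, 0, 0 and 1 counts in wild-type, 1, 0, 1 and 0 in Kat6a-null, 1, 3, 4 and 1 in transgenic, and 2, 0, 5 and 2 in null-transgenic, sums of 1, 2, 9 and 9. It was not tested and no fold is given. Hoxa13 was also low, at 9 to 66 counts per embryo, and was not called in any comparison.

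Beyond these 6 genes, 15 of 21 other noncoding and Evx genes listed for the clusters are in the files, and 11 of the 15 were tested. In Kat6a-null vs. wild-type embryos 1 of 11 fell and none rose (1.88% of all tested genes were called), in null-transgenic vs. Kat6a-null embryos 3 rose and none fell (7.14% of all), in null-transgenic vs. transgenic embryos 1 fell (3.41% of all), and in the others none was called. Hoxaas2, antisense in HoxA, fell with loss of KAT6A, from 8.61 to 5.80 CPM (a log2 fold change −0.56, standard error 0.129, edgeR FDR = 0.0252), with no overlap of the embryos. It was 0.53 higher on the log2 scale in null-transgenic than in Kat6a-null embryos (standard error 0.131, FDR = 0.019). The homeobox gene Evx1, beside HoxA (0.49, FDR = 0.0329), and the precursor gene Mir10a, within HoxB (2.76, standard error 0.613, FDR = 0.00972), also rose there. Mir10a rests on 1, 1, 0 and 6 counts against 13, 8, 10 and 19. Hoxd3os1 had a log2 fold change of −2.01 (standard error 0.411, FDR = 0.0121) between the genotypes that carry the transgene, from 21, 24, 38 and 26 counts in transgenic to 12, 8, 1 and 7 in null-transgenic embryos. Hoxd3 had a log2 fold change of −0.36 there (edgeR FDR = 0.0195). Overlap of Hoxaas2 and Hoxd3os1 with Hox exons on the other strand was not measured, so the limit on strand given above may hold for them too.

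Across the 16 embryos, the genes whose log2 CPM followed Hoxb5os most closely were Foxe1 (Pearson's r = 0.943), Hoxb1 (0.923) and Nalf2 (0.919), out of all tested genes. Its nearest Hox gene, Hoxb6, had r = 0.677 and came 404th. Hoxa11os was followed most closely by Hoxb6 (0.866), Irx3 (0.864) and 2500004C02Rik (0.854), with Hoxa11 at 0.675 and rank 163. For Hotairm1 the first 3 were Efhb (0.846), Taf6 (0.838) and 4833420G17Rik (0.812). For Hoxb3os they were Sec14l5 (0.858), Ankra2 (0.79) and Tial1 (0.776), with Hoxb3 at 0.52 and rank 356, and for Hotair Gm20346 (0.792), Tmtc4 (0.768) and Gm9958 (0.767), with Hoxc11 at 0.271 and rank 2897. These are descriptions over embryos that share 4 genotypes and 6 litters, and each is the highest among all tested genes. Among the noncoding genes themselves the highest correlation was that of Hoxb5os with Hoxa11os (r = 0.693), and the lowest that of Hotairm1 with Hotair (r = 0.189).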

How the data were processed

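RNA of whole embryos was prepared with a TruSeq RNA kit, which does not mark strand, and sequenced as paired ends. The authors aligned the reads to mm39 with Rsubread and counted them per gene with featureCounts. The deposited values are raw counts per gene and sample, with a listed gene length. For the RNA-seq, the annotation release, strand setting, treatment of shared reads and versions of those tools were not given in the sources used here. The genes and lists described here were chosen with earlier results of these data known. Named genes are the 6 noncoding genes, their neighbouring Hox genes, and for each tested noncoding gene the 3 genes of highest correlation. Hoxd3 and Hoxd4 are named as Hox genes called in the same comparisons as Hoxb5os. Among the other noncoding and Evx genes, those called are named. The values of 1 neighbouring Hox gene are counted in the lists but not reported here.

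Counts of 16 embryos were scaled by TMM and tested with edgeR 4.0.16 (quasi-likelihood, robust, filterByExpr with a minimum count of 10) in R 4.3.3, with 2 surrogate variables from sva 3.50.0. The first surrogate variable separated the sexes. The adjusted p threshold was 0.05. Library totals ran from 14407277 to 45665680, so 1 read was worth 0.022 to 0.0686 CPM. Count ratios used a pseudocount of 0.5 and an exact permutation test. Alternatives were DESeq2 1.42.0, limma-voom (limma 3.58.1), other scalings, filters and covariates, litter and replicate blocks, and leaving out each embryo. GENCODE exon bases as gene lengths, and ratios compared within litters, were added after the data were seen. Embryos are separate animals, but littermates share a dam.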

Additional observations from a re-analysis of the deposited data

Results flagged for a closer look

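Of 44 sets of 4 embryos tested, 3 held an embryo far from the other 3 of its genotype, and chance gives about 1 in 20. Hoxa13 was at 1.236 CPM in wild-type replicate 4, above its group, and at 0.6609 CPM in transgenic replicate 1, below its group. Hoxc11 was at 2.516 CPM in transgenic replicate 2, below its group. None of these values belongs to a noncoding gene.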

How the results depend on the processing

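Of the fold changes of single noncoding genes under alternatives, 744 kept their side of the threshold and 21 lost a call. Most of the 744 belong to comparisons that were not called at first and so had no call to lose. Hoxb5os kept its call in 26 of 27 alternatives in Kat6a-null vs. wild-type embryos. In null-transgenic vs. Kat6a-null embryos Hoxb5os kept it in 25 of 25 and Hoxa11os in 18 of 25. In null-transgenic vs. transgenic embryos Hoxb5os kept it in 12 of 25. The noncoding genes called in Kat6a-null vs. wild-type embryos went from 1 to 0 with litter as a block and surrogate variables. In null-transgenic vs. Kat6a-null embryos they went from 2 to 1 with the replicate block, and ranged from 1 to 2 when embryos were left out in turn. In null-transgenic vs. transgenic embryos they went from 1 to 0 with no or 1 surrogate variable, with sex as covariate and with the replicate block, and ranged from 0 to 1 when embryos were left out. Neighbouring Hox genes called in null-transgenic vs. Kat6a-null embryos ranged from 4 to 8 when embryos were left out, beside 7. In null-transgenic vs. wild-type embryos they went from 0 to 1 with no or 1 surrogate variable, sex as covariate or DESeq2, and ranged from 0 to 1 when embryos were left out. In transgenic vs. wild-type embryos they went from 0 to 2 with DESeq2 and ranged from 0 to 1 when embryos were left out. The ratio of Hoxb5os to Hoxb6 in Kat6a-null vs. wild-type embryos ranged from −0.62 to −0.31 when embryos were left out. The cause of these changes was not tested. Same-numbered embryos of different genotypes correlated at −0.255 to 0.215 over 24 pairs, and 4 of 16 embryos correlated best with their own number. These correlations were not set against those of differently numbered embryos, so they do not decide whether the replicate number marks a pairing. Some same-numbered embryos are littermates, such as wild-type and Kat6a-null replicate 1 of litter 801. Low counts limit Hotair and Hottip.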
